A study of Bombyx mori with 9 samples.

Results

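This report describes 34 genes of the silkworm Bombyx mori whose RNA in the silk gland was set apart high in the strain DMMMSU119. They were chosen from the 14124 genes of the deposited table of log2 normalized counts. A gene was taken if its lowest value in the 3 DMMMSU119 libraries was at least 6 and lay at least 3 above its highest value in the 6 LAT51 and MO204 libraries. Of the 44 genes that met this floor and gap, 5 were left out by name (Ser3, Hsp20.8, Hsp20.4, CPH43 and CP8). Another 5 were left out because library DMMMSU119-0 exceeded DMMMSU119-2 by 1 or more and DMMMSU119-2 exceeded DMMMSU119-4 by 1 or more. The difference between DMMMSU119 and the other strains therefore chose these genes, and their values in that contrast are given as a description without a test.

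The samples were mRNA of whole silk glands, whose regions were not separated, from larvae of the 5th instar on day 3. DMMMSU119 (libraries 0, 2 and 4) and MO204 (libraries 1, 3 and 4) came from TCMO in Misamis Oriental, and LAT51 (libraries 1, 2 and 4) came from CAR in Benguet, so that strain and site cannot be told apart for LAT51. No larva carried a transgene or received a treatment that the labels name. DMMMSU119 was classed by its rearing facility as a poorly performing strain on hatching, larval mortality and pupation, and MO204 and LAT51 as priority strains. Each strain is represented by 3 individual larvae.

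The silk gland is a paired larval organ that makes the cocoon. Its posterior part secretes the fibroins, the core of the thread, and its middle part secretes the sericins, the glue around it. Besides these structural proteins the gland makes protease inhibitors that are carried into the silk and can protect its proteins from digestion. Serpins, one family of inhibitors, trap a serine protease in a complex from which it is not released. UDP-glycosyltransferases attach a sugar to small fat-soluble molecules, such as plant compounds, and make them easier to excrete.

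The libraries held 4527847 to 11641130 counts on genes. Scaling factors by the trimmed mean of M-values (TMM) were 0.421 to 0.591 in DMMMSU119 libraries, against 1.26 to 1.53 in the LAT51 and MO204 libraries. FIBH, the fibroin heavy chain gene, took 16.4 to 25.8% of all counts in DMMMSU119, 4.53 to 5.49% in LAT51 and 6.82 to 11.5% in MO204. Scaling thus raised every DMMMSU119 level relative to the other strains. Under scaling by library size alone, tried after the data were seen, 15 genes met the rule, and all 15 were among the 34.

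The 34 genes took 6.19 to 7.53% of the counts in DMMMSU119 libraries, 0.177 to 0.267% in LAT51 and 0.360 to 1.36% in MO204. Most of this came from 3 loci, LOC101737792, LOC119628831 and LOC119628848. Without them the shares were 1.10 to 1.75% in DMMMSU119, 0.00690 to 0.0121% in LAT51 and 0.0206 to 0.0253% in MO204. The gap between the lowest DMMMSU119 value and the highest value of the other strains had a median of 4.75 on the log2 scale and ran between 3.06 and 8.48. It was 5 or more in 15 genes and 4 or more in 21. Just inside the limit of the rule were LOC119628831 with a gap of 3.09, LOC101746512 with 3.08 and LOC101744399 with 3.06. Just outside it were LOC101743641 with 2.93, LOC101735419 with 2.92 and LOC101743953 with 2.86, so the limit cuts through a continuous run of values.

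**Figure D1:**
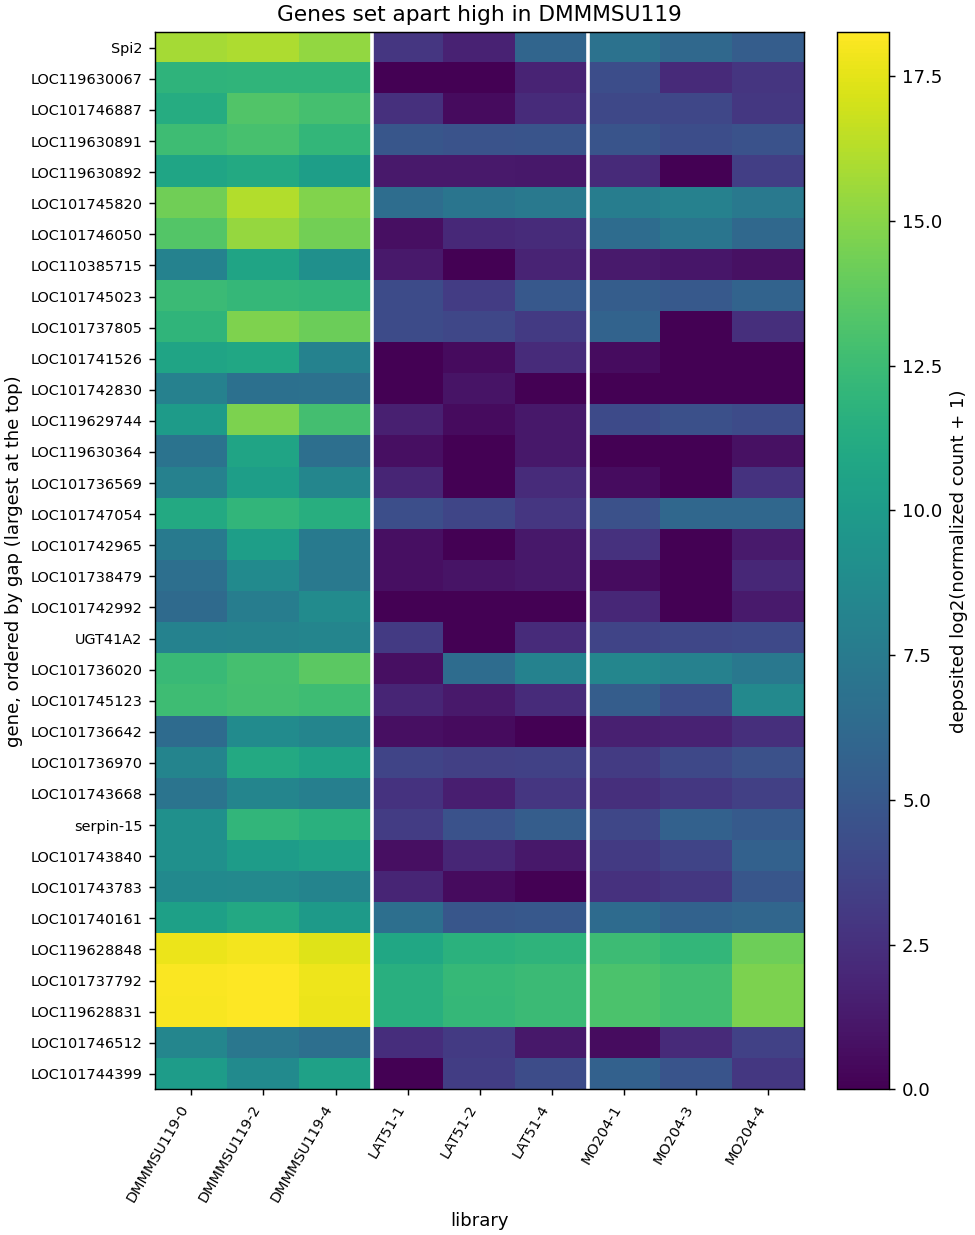
Deposited log2(normalized count + 1) of the 34 genes (rows, ordered by gap) in the 9 libraries (columns, DMMMSU119 left, then LAT51 and MO204), with colour from 0 (dark) to the highest value (yellow). Every gene is at 6 or more in the 3 DMMMSU119 libraries, as the rule sets, and the 3 rows near the bottom that stay green in LAT51 and MO204 are the loci with the highest counts.

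Spi2, a gene with the symbol of a protease inhibitor, had the largest gap, 8.48. It stood at 8017, 9246 and 5699.5 TMM-normalized CPM (counts scaled to a common library size) in DMMMSU119-0, -2 and -4, against 0.899, 0.323 and 8.41 CPM in LAT51 and 16.2, 10.1 and 5.80 CPM in MO204. Its DMMMSU119 mean of 7654 ± 1801 CPM (SD, n = 3) was 2385-fold that of LAT51 and 715-fold that of MO204. The 3 DMMMSU119 libraries lay within 0.70 of each other on the log2 scale, while LAT51-4 stood with the MO204 libraries and apart from the other 2 LAT51 libraries.

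LOC101741526 is the next tested gene beside Spi2 in the order of the newer assembly ASM3026992v2. Its levels were 226, 255 and 38.0 CPM in DMMMSU119, 0, 0.0646 and 0.525 CPM in LAT51 and 0.0712, 0 and 0 CPM in MO204. It was low in DMMMSU119-4 relative to the other DMMMSU119 libraries. In the LAT51 and MO204 libraries it had at most 3 counts each, so the fold over them is a lower bound, the DMMMSU119 mean over the mean level that 3 counts per library would give: at least 510.1-fold higher than LAT51 and at least 505-fold higher than MO204. No role is given to it, since the gene table used here names it by its locus number only.

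The other member with the symbol of a protease inhibitor was serpin-15. It had 79.6, 574 and 420.1 CPM in DMMMSU119, 1.20, 3.29 and 5.43 CPM in LAT51 and 1.99, 6.99 and 5.04 CPM in MO204. Its DMMMSU119 mean was 108-fold that of LAT51 and 76.5-fold that of MO204. Unlike Spi2, it varied widely within DMMMSU119, with a range of 2.85 on the log2 scale and its low value in DMMMSU119-0.

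Protease inhibitor genes outside the 34 were counted by symbol (Spi1, SPI37 and the serpins). Of the 33 listed genes, 16 passed the filter on low counts, and 14 of these are not among the 34. In edgeR's quasi-likelihood test (adjusted p under 0.1, Benjamini–Hochberg), 5 of the 14 were higher and 0 lower in DMMMSU119 than in MO204, where 16.7% of all 7610 tested genes were higher and 16.3% lower. Against LAT51, 9 were higher and 1, serpin-21, was lower, where 19.8% of tested genes were higher and 18.2% lower. The median log2 fold change (log2FC) of the 14 was 1.20 against MO204 and 2.20 against LAT51, beside -0.03 and -0.01 over all tested genes. These 2 comparisons share the DMMMSU119 libraries. Of the 14, serpin-9, serpin-1 and serpin-7 fell by 1 or more on the log2 scale at each step between DMMMSU119-0, -2 and -4, with 7310, 1328 and 92 counts, 2117, 348 and 191 counts, and 66, 15 and 7 counts. Fat body markers fell in the same order, with sums of 84814, 26223 and 3469 CPM, and their part in these values was not tested. Among the other 11 inhibitors, 4 were higher and 0 lower against MO204, and 6 were higher and 1 lower against LAT51. Without DMMMSU119-0, 3 of the 14 were higher against MO204, with a median log2FC of 0.47, and 6 were higher against LAT51, with a median of 1.85.

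Spi1, the other gene of the Spi symbols, averaged 1641 ± 1543 CPM in DMMMSU119, 26.2 ± 13.2 CPM in LAT51 and 53.6 ± 27.6 CPM in MO204 (SD, n = 3 each). Its log2FC was 4.94 against MO204 (edgeR adjusted p = 0.00647) and 5.96 against LAT51 (edgeR adjusted p = 0.00254). It was thus called in both contrasts, although its DMMMSU119 libraries differed among themselves more than those of Spi2. Serpin-28 averaged 404 ± 153 CPM in DMMMSU119, 31.7 ± 26.6 CPM in LAT51 and 41.6 ± 17.0 CPM in MO204, and serpin-5 averaged 12.1 ± 3.67, 3.06 ± 0.669 and 2.68 ± 1.20 CPM in the same order. Both were called higher in DMMMSU119 in both contrasts. The direction of the group against MO204 turned with the scaling: with library size alone, 2 of the 14 were higher and 3 lower, with a median log2FC of -0.15, and against LAT51 5 were higher and 3 lower, with a median of 0.86. That scaling moved the median of all tested genes to -1.43 against MO204 and to -1.39 against LAT51. Relative to that shift, the inhibitors' median stayed above that of all genes.

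UGT41A2 was the only other member with a gene symbol and is a UDP-glycosyltransferase. It was among the steadiest of the 34, with 38.4, 40.2 and 44.6 CPM in DMMMSU119, 1.10, 0 and 0.525 CPM in LAT51 and 1.71, 1.95 and 2.19 CPM in MO204. Its mean was 75.9-fold that of LAT51 and 21.1-fold that of MO204. Of the 14 other tested UDP-glycosyltransferase genes, 8 were higher and 0 lower in DMMMSU119 in each of the 2 contrasts in the edgeR test, beside the 16.7% higher and 16.3% lower of all tested genes against MO204 and the 19.8% and 18.2% against LAT51. Their median log2FC was 1.93 against MO204 and 2.36 against LAT51. Of the called genes, Ugt3, UGT39C1, UGT33D6, UGT41A1 and UGT48C1 passed the filter on low counts only with the DMMMSU119 libraries included. UGT41A1 and UGT48C1 were called against LAT51 alone, the others in both contrasts. The calls of these genes are a description. Without DMMMSU119-0, 7 of the 14 were higher and 1 lower in each contrast, with medians of 1.87 and 2.34. Under scaling by library size alone, 5 of the 14 were higher and 3 lower against MO204, with a median of 0.58. Against LAT51, 6 were higher and 2 lower, with a median of 0.97. Over all 7610 tested genes that scaling gave 378 higher and 5181 lower against MO204, and 571 higher and 5086 lower against LAT51.

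UGT40A1 averaged 99.0 ± 54.3 CPM in DMMMSU119, 8.43 ± 0.461 CPM in LAT51 and 2.48 ± 1.09 CPM in MO204. UGT33D5 averaged 62.0 ± 15.1 CPM in DMMMSU119, 14.7 ± 4.23 CPM in LAT51 and 8.59 ± 4.07 CPM in MO204. Both were called higher in DMMMSU119 against each of the other strains. Of the other UGT41A symbols, UGT41A1 had 2.43 ± 0.612, 0.379 ± 0.453 and 0.859 ± 0.702 CPM in the same order. It was called against LAT51 (log2FC = 2.65, edgeR adjusted p = 0.0532) and not against MO204 (log2FC = 1.51, edgeR adjusted p = 0.208). UGT41A3 was too low to be tested, with 8, 10 and 10 counts in DMMMSU119, 0, 1 and 0 in LAT51 and 0, 0 and 2 in MO204.

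For 4 of the 34 genes another gene of the count table had nearly the same counts, and in each case it was a gene that the rule left out by name. This search was made after the data were seen, and asked for counts within 1.25-fold in each DMMMSU119 library and within 1.5-fold in the sum of the other libraries. The other 30 genes had no such partner. LOC119630891 had 2976, 4432 and 3269 counts in DMMMSU119, 42, 52 and 20 in LAT51 and 51, 17 and 30 in MO204, while Hsp20.8, a small heat shock protein gene, had 3361, 4671 and 3421, then 44, 53 and 23, then 54, 17 and 32. The ratio of Hsp20.8 to LOC119630891 was 1 to 1.15 over the 9 libraries. Small heat shock proteins hold unfolding proteins in solution until other chaperones can refold them.

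LOC119630892 had 834, 1199 and 924 counts in DMMMSU119, 2, 3 and 1 in LAT51 and 7, 0 and 12 in MO204. Hsp20.4, another small heat shock protein gene, had 894, 1375 and 935 counts in DMMMSU119, 2, 3 and 1 in LAT51 and 6, 0 and 14 in MO204. In both pairs the partner thus followed the member library by library. In CPM, LOC119630891 averaged 843 ± 245 in DMMMSU119, 229-fold its LAT51 mean and 261-fold its MO204 mean. LOC119630892 averaged 233 ± 62.5 CPM in DMMMSU119, at least 687-fold higher than LAT51 and 386-fold its MO204 mean.

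The 3 loci with the highest counts followed CPH43, a cuticular protein gene. LOC101737792, a long noncoding RNA gene in the newer assembly, had 144966, 175785 and 167633 counts in DMMMSU119, 4256, 10145 and 4350 in LAT51 and 17616, 6019 and 34149 in MO204. CPH43 had 143589, 176728 and 168170 counts in DMMMSU119, 4282, 10125 and 4361 in LAT51 and 17544, 5961 and 34059 in MO204, a ratio of 0.990 to 1.01. LOC101737792 overlaps CPH43, LOC119628831 and LOC100101225 in ASM3026992v2. LOC100101225 did not follow it, with 32, 28 and 17 counts in DMMMSU119, 38, 83 and 40 in LAT51 and 199, 90 and 142 in MO204. The ratio of CPH43 to LOC119628831 was 1.01 to 1.04, and that of CPH43 to LOC119628848 was 1.25 to 1.60, outside the tolerance. LOC119628848 was not matched to that assembly. Per the study's methods, a read was counted only where it did not overlap another gene, while the treatment of reads that map to several places is not given in the sources used here. For some libraries aligned with another aligner, STAR, the paper reports a larger share of reads mapped to several places in DMMMSU119 than in LAT51 and MO204. Whether these loci share reads was not tested. Counted as 1 locus, they leave 32 members.

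**Figure D2:**
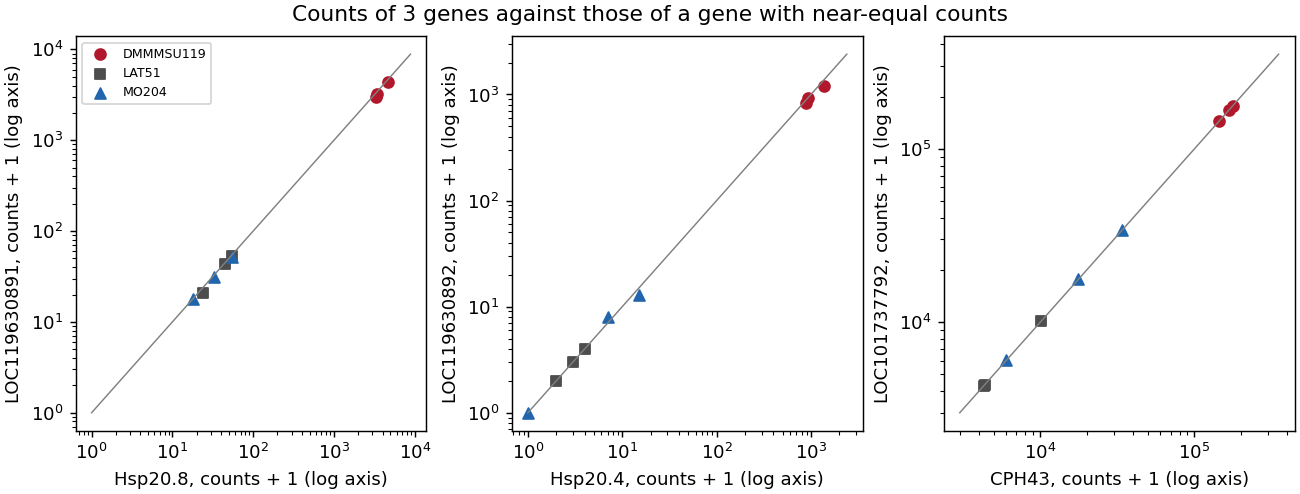
Counts + 1 on log axes in the 9 libraries for LOC119630891, LOC119630892 and LOC101737792 (vertical) against Hsp20.8, Hsp20.4 and CPH43 (horizontal); circles are DMMMSU119, squares LAT51, triangles MO204, and the grey line marks equal counts. The points lie along the line in all 3 panels, with the DMMMSU119 libraries at the upper end.

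These loci had the most counts of the 34 in every strain. LOC101737792 stood at 40625, 43307 and 30899 CPM in DMMMSU119, 425, 655 and 762 CPM in LAT51 and 1254, 979 and 3738 CPM in MO204. LOC119628831 stood at 38945, 41767 and 29893 CPM in DMMMSU119, 417, 643 and 751 CPM in LAT51 and 1229, 959 and 3619.9 CPM in MO204. LOC119628848 stood at 29709, 34795 and 23377 CPM in DMMMSU119, 268, 443 and 507 CPM in LAT51 and 849, 616 and 2781 CPM in MO204. Their small gaps, 3.09 to 3.11, rested on 1 library, MO204-4, whose values lay well above those of MO204-1 and MO204-3. Their DMMMSU119 means were 61.1- to 72.2-fold those of LAT51 and 19.0- to 20.7-fold those of MO204.

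The remaining genes with large gaps carry locus numbers only, and no role is given to them. LOC119630067 was the steadiest of the 34, with 530.2, 557 and 552 CPM in DMMMSU119, 0, 0 and 0.350 CPM in LAT51 and 2.71, 0.488 and 0.876 CPM in MO204. Its DMMMSU119 mean was at least 1609-fold higher than LAT51 and 403-fold its MO204 mean. LOC101745023 was nearly as even, with 779, 633 and 573 CPM in DMMMSU119, 2.40, 1.16 and 4.20 CPM in LAT51 and 5.84, 4.72 and 7.77 CPM in MO204. Both genes thus had a level in DMMMSU119 that hardly varied between larvae, with a SD on the log2 scale of 0.04 for LOC119630067 and 0.22 for LOC101745023.

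LOC101746887, LOC101745820 and LOC101737805 were as far apart from the other strains but varied more in DMMMSU119. LOC101746887 had 356, 1377 and 1017 CPM in DMMMSU119, 0.699, 0.0646 and 0.525 CPM in LAT51 and 2.06, 1.95 and 0.985 CPM in MO204. LOC101745820 had 2753, 9887 and 4033 CPM in DMMMSU119, 13.5, 18.7 and 22.1 CPM in LAT51 and 29.8, 36.3 and 23.9 CPM in MO204. LOC101737805 had 555, 3794 and 2551 CPM in DMMMSU119, 2.50, 1.87 and 1.05 CPM in LAT51 and 7.62, 0 and 0.657 CPM in MO204. In all 3 the value of DMMMSU119-0 was the lowest and that of DMMMSU119-2 the highest of the strain. LOC119629744 had the same order and the widest range, with 141, 3572 and 980.4 CPM in DMMMSU119, 0.300, 0.0646 and 0.175 CPM in LAT51 and 2.28, 2.93 and 2.41 CPM in MO204. Even its lowest DMMMSU119 library was 5.56 above the highest library of the other strains on the log2 scale.

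**Figure D3:**
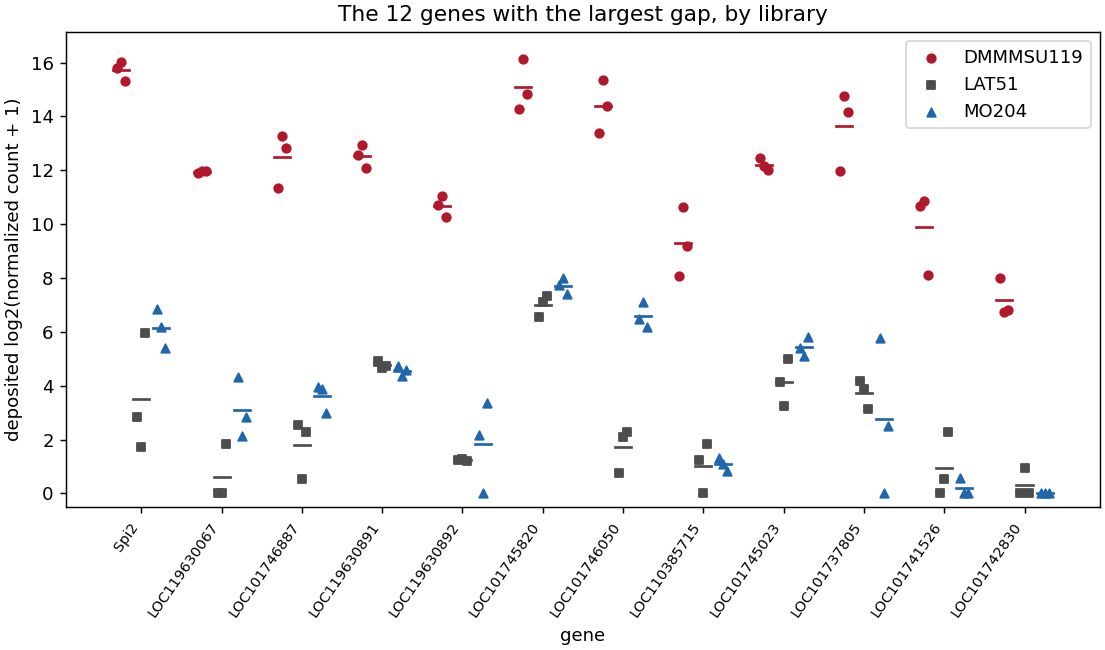
Deposited log2(normalized count + 1) of the 12 genes with the largest gap, by library; circles are DMMMSU119, squares LAT51, triangles MO204, and each bar is the mean of 3 libraries. All DMMMSU119 points lie above all others, as the rule sets, with gaps between 5.80 for LOC101742830 at the right and 8.48 for Spi2 at the left.

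In 4 of the 34 genes no LAT51 or MO204 library had more than 3 counts: LOC101741526, LOC110385715, LOC101742830 and LOC119630364. LOC110385715 had 37.0, 221 and 79.8 CPM in DMMMSU119, at least 332-fold higher than LAT51 and at least 328-fold higher than MO204 on average. LOC101742830 had 35.3, 14.8 and 15.5 CPM in DMMMSU119, and 0.129 CPM in LAT51-2 was its only value above 0 outside that strain. LOC119630364, a long noncoding RNA gene, had 16.8, 219 and 13.8 CPM in DMMMSU119, so that DMMMSU119-2 carried most of its reads. Counting LAT51 alone, 11 genes had at most 3 counts in each library, and counting MO204 alone, 4 had. RNA of these genes was not detectable above that floor, which does not show that it was absent.

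Matched by symbol or synonym to ASM3026992v2, which held 14504 of the 16674 IDs of the count table, 20 of the 34 genes were protein coding, 7 were long noncoding RNA genes and 7 were not matched. These are 58.8%, 20.6% and 20.6% of the 34, beside 91.2%, 2.73% and 5.35% of all tested genes. The 7 noncoding genes include LOC101737792, whose counts were close to those of CPH43. LOC101746050 had the most counts of the other 6 in DMMMSU119, with 1477, 5765 and 2982 CPM in DMMMSU119, 0.0998, 0.452 and 0.525 CPM in LAT51 and 12.4, 19.5 and 10.1 CPM in MO204. LOC101736020 had 739, 1031 and 1815 CPM in DMMMSU119, 0.0998, 11.7 and 36.4 CPM in LAT51 and 46.1, 37.4 and 22.5 CPM in MO204. LOC101736020 was the member that varied most among the LAT51 larvae, with LAT51-1 near 0 and LAT51-4 within the range of the MO204 libraries. LOC101745123 had 838, 971 and 869.8 CPM in DMMMSU119, 0.399, 0.194 and 0.525 CPM in LAT51 and 5.70, 2.76 and 54.4 CPM in MO204. This gene was near-constant in DMMMSU119 and uneven in MO204, where MO204-4 stood far above the other 2 libraries. LOC101736642 had 11.5, 61.6 and 42.9 CPM in DMMMSU119, 0.0998, 0.0646 and 0 CPM in LAT51 and 0.285, 0.325 and 0.657 CPM in MO204. LOC101746512 had 46.0, 20.9 and 13.6 CPM in DMMMSU119, 0.599, 1.03 and 0.175 CPM in LAT51 and 0.0712, 0.488 and 1.53 CPM in MO204. In LOC101746512 the highest DMMMSU119 library was DMMMSU119-0, unlike in most of the 34 genes.

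The other 11 protein-coding members with locus numbers averaged between 31.4 and 421.5 CPM in DMMMSU119, a level not divided by gene length. LOC101747054 had the highest, with 297, 575 and 393 CPM in DMMMSU119, 2.90, 1.81 and 0.876 CPM in LAT51 and 3.13, 9.43 and 9.52 CPM in MO204. In ASM3026992v2 it overlaps LOC101746922, which was not high in DMMMSU119, with 229, 209 and 214 counts in DMMMSU119, 533, 1178 and 368 in LAT51 and 898, 350 and 540 in MO204. LOC101740161 had the smallest fold against LAT51 of the 34, 26.5-fold, with 181, 289 and 135 CPM in DMMMSU119, 14.7, 3.94 and 4.20 CPM in LAT51 and 11.5, 7.48 and 9.30 CPM in MO204. LOC101744399, at the limit of the rule, had 154, 58.9 and 197 CPM in DMMMSU119, 0, 1.23 and 2.45 CPM in LAT51 and 7.12, 3.74 and 0.985 CPM in MO204. It was lowest in DMMMSU119-2, as only LOC101742830 was among the other members.

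LOC101736970 had 40.9, 302 and 200.2 CPM in DMMMSU119, 1.80, 1.36 and 1.40 CPM in LAT51 and 1.14, 2.11 and 3.17 CPM in MO204, and so shared the order of serpin-15, with DMMMSU119-0 the lowest library. LOC101742965 had 24.1, 165 and 24.0 CPM in DMMMSU119, 0.0998, 0 and 0.175 CPM in LAT51 and 0.712, 0 and 0.219 CPM in MO204. Here DMMMSU119-2 alone stood high, as in LOC119630364. LOC101742992 had 10.9, 29.3 and 62.5 CPM in DMMMSU119 and 0.427, 0 and 0.219 CPM in MO204, and no count in any LAT51 library, so that it was at least 101-fold higher than LAT51. LOC101743668 had 17.7, 44.1 and 32.4 CPM in DMMMSU119, 0.799, 0.258 and 0.876 CPM in LAT51 and 0.641, 0.976 and 1.42 CPM in MO204, a mean 48.7-fold that of LAT51 and 31.0-fold that of MO204. In these 4 genes the LAT51 and MO204 libraries overlapped.

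Within DMMMSU119 the 34 genes spread more than most genes. Their SD on the log2 scale had a median of 0.79, beside 0.51 over all tested genes, and ran between 0.04 in LOC119630067 and 2.35 in LOC119629744. The 3 DMMMSU119 libraries lay within 1 of each other in 12 genes (51.4% of tested genes did) and more than 2 apart in another 12. DMMMSU119-2 was the highest library of the strain in 25 genes, DMMMSU119-4 in 5 and DMMMSU119-0 in 4. The share over all tested genes was not computed for the highest library or for a range over 2, so these counts are not read as a trait of the 34 genes. DMMMSU119-2 had the smallest TMM factor, 0.421, against 0.591 in DMMMSU119-0 and 0.573 in DMMMSU119-4. As shares of all counts, before scaling, the 34 genes together took 7.53, 6.79 and 6.19% in DMMMSU119-0, -2 and -4. Without the 3 loci with the highest counts these shares were 1.10, 1.75 and 1.37%. How far scaling shaped the order was not tested. The lowest library was DMMMSU119-0 in 19 genes, DMMMSU119-4 in 13 and DMMMSU119-2 in 2, beside 34.5%, 29.5% and 36.1% of tested genes. In 9 of the 34 genes DMMMSU119-0 was lower than both others by 1 or more, beside a smaller share, 7.77%, of tested genes. The rule itself removes genes that fall by steps between DMMMSU119-0 and DMMMSU119-4, so this order is partly set by the choice of genes. LAT51 and MO204 libraries also spread more in these genes, with median SDs of 0.67 and 0.81, beside 0.42 and 0.33 over tested genes, most of which have higher levels there.

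**Figure D4:**
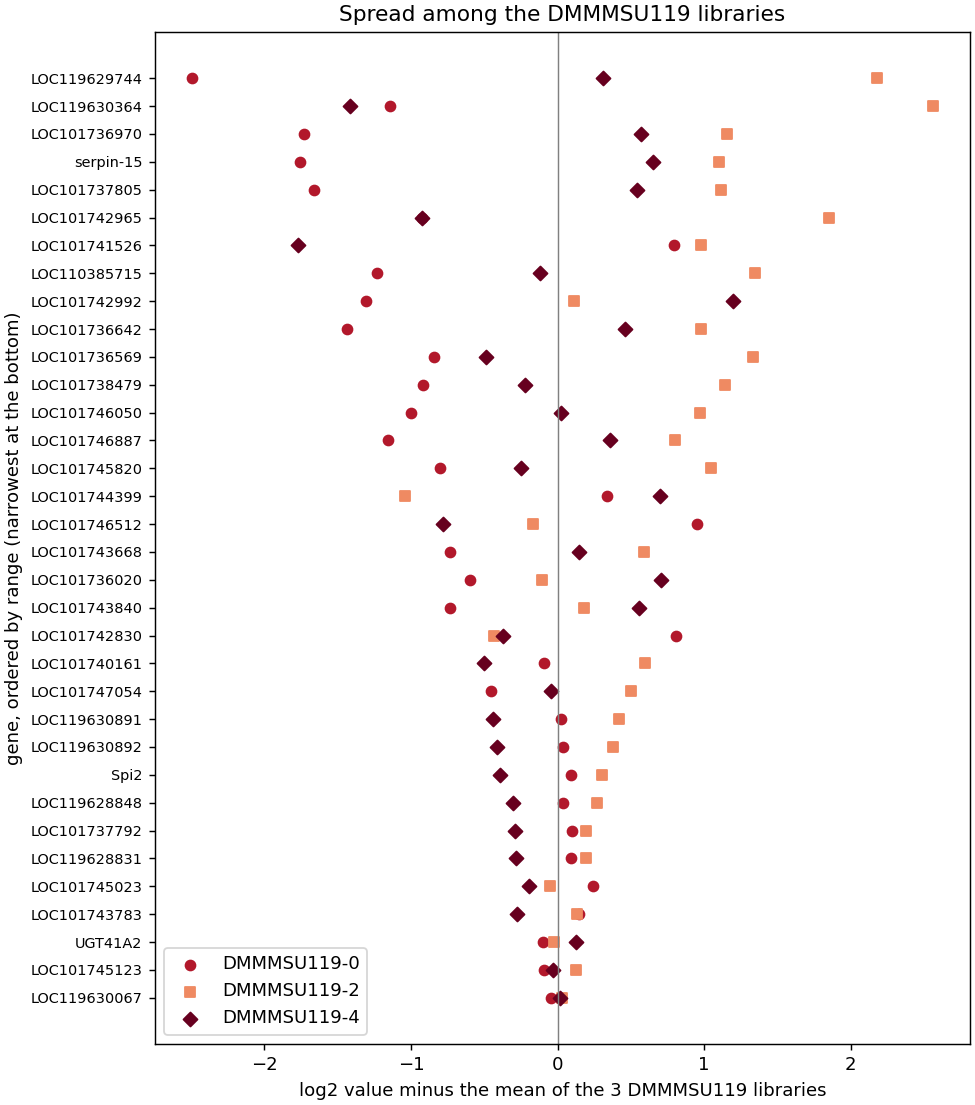
For each of the 34 genes (rows, narrowest range at the bottom), the log2 value in DMMMSU119-0 (circles), DMMMSU119-2 (squares) and DMMMSU119-4 (diamonds) minus the mean of the 3 libraries. The range of the 3 libraries is 0.08 in LOC119630067 and 4.67 in LOC119629744. The squares are at the right in 25 rows, a count for which the share over all tested genes was not computed.

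Libraries of DMMMSU119 also differed in markers of other tissues. Fat body markers (Sp1, Sp2, VG and 5 lipoprotein genes) summed to 84814, 26223 and 3469 CPM in DMMMSU119-0, -2 and -4, against 13.8 to 145 CPM in LAT51 and 61.9 to 695 CPM in MO204. Of these, VG alone had a lower mean in DMMMSU119, 1.01 CPM, than in LAT51 (7.25 CPM) and MO204 (4.22 CPM). Muscle markers (Tm, TpnI, Mf and MLC-2) summed to 7881 CPM in DMMMSU119-0, 30.1 in DMMMSU119-2 and 35.4 in DMMMSU119-4, 23.8 to 47.1 CPM in LAT51 and 45.2 to 606 CPM in MO204. Among them only Tm had a lower mean in DMMMSU119, 17.6 CPM, than in LAT51 (35.9 CPM) and MO204 (35.3 CPM). The rule leaves out genes that fall by 1 or more on the log2 scale at each step, as the fat body sum did. Its step condition does not cover genes high in DMMMSU119-0 alone, like the muscle sum. Haemocyte markers (PPO1 and PPO2) summed to 8.11 to 10.1 CPM in DMMMSU119, 5.59 to 14.0 CPM in LAT51 and 9.97 to 14.0 CPM in MO204, and the midgut gene Amy stood at 0 to 3.70 CPM in DMMMSU119, 0 to 0.525 CPM in LAT51 and 0 to 0.109 CPM in MO204. The part of these tissues in the levels of the 34 genes was not tested.

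Cuticular protein genes, which mark epidermis and trachea (207 symbols starting with CP), summed to 36186 to 46272 CPM in DMMMSU119, 691 to 1451 CPM in LAT51 and 1747 to 4171 CPM in MO204. Most of this was CPH43: without it, a choice made after the data were seen, the sums were 1754 to 6033 CPM, 264 to 687 CPM and 442 to 874 CPM in the same order. The markers of the labelled tissue were present in every library. The posterior silk gland genes FIBH, Fib-l and P25 summed to 327651, 704013 and 512931 CPM in DMMMSU119-0, -2 and -4, 49717 to 52876 CPM in LAT51 and 61428 to 107177 CPM in MO204, and the middle silk gland genes Ser2 and Ser3 summed to 40083 to 64399 CPM, 37516 to 70157 CPM and 25178 to 42663 CPM. The posterior list was thus lowest in DMMMSU119-0 and highest in DMMMSU119-2. Many of the 34 genes had this order too, but its share over all tested genes was not computed. The part of the posterior list in their spread was not tested. The 2 middle gland genes differed: Ser3 averaged 19016 CPM in DMMMSU119, 4.92 in LAT51 and 46.1 in MO204. Ser2 averaged 29211, 52837 and 33471 CPM in the same order. In bulk RNA of whole glands, more cells of a type and more RNA per cell cannot be told apart.

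The contrast that the choice of genes did not use is LAT51 vs. MO204. All 34 genes passed the filter on low counts in the fit of all 9 libraries, but 15 of them passed only through the DMMMSU119 libraries in which they were chosen to be high. The other 19 also passed on the 6 LAT51 and MO204 libraries alone. In that fit edgeR called 4 of the 19 (21.1%) at an adjusted p under 0.1, all lower in LAT51, beside 4.84% of the 7245 genes tested, 2.42% lower and 2.43% higher. They were LOC101746050 (edgeR adjusted p = 0.00370), LOC119629744 (0.0189), LOC101745123 (0.0618) and LOC101743840 (0.0820). In all 4, each LAT51 library was under the level the filter asks for, so these genes passed it through the MO204 libraries alone. MO204 is also the strain in which they were higher, so the calls and their share are a description. The log2FC was below 0 in 18 of the 19, beside 50.2% of the tested genes, with a median of -1.71, beside a median near 0 over the tested genes. Every LAT51 library lay below every MO204 library in 11 of the 19 (57.9%), beside 9.15% of the tested genes, and the reverse in 0, beside 10.1%. The 11 and the 18 both include LOC101737792, LOC119628831 and LOC119628848, whose counts rose and fell together. They are counted as 3 genes here.

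The fit of all 9 libraries includes the 15 genes that passed only through DMMMSU119, so its values for the 34 are a description and not support. In it, 4 of the 34 were called (11.8%), all lower in LAT51 and 0 higher. These are not the same 4 genes: LOC119630067 was called here. LOC119629744, with at most 3 counts in each LAT51 library, was not (edgeR adjusted p = 0.156). Of the 7610 tested genes, 3.07% were called, 1.56% lower and 1.51% higher. An unadjusted p under 0.05 was found in 14, beside 13.0% of tested genes. The count of 4 was 1 without LAT51-1 or LAT51-2, 2 without MO204-3 or MO204-4, 2 with a replicate block or with no filter, and 10 with DESeq2. The log2FC was below 0 in 30 of the 34, beside 51.4% of tested genes, and its median was -1.67, beside -0.01 over tested genes. With genes that had at most 3 counts per LAT51 library set at their bound, the median of 30 genes was -1.21, since 4 genes at or under that floor in both strains have no fold.

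Over the 34 genes, again as a description, every LAT51 library lay below every MO204 library in 15 (44.1%), beside 9.57% of tested genes. The reverse order was found in 0, beside 9.95%. With the 3 CPH43-like loci counted as 1, it was 13 of 32 (40.6%). Of the 6 libraries, MO204-4 was the highest in 16 genes, MO204-1 in 8 and MO204-3 in 4, so that an MO204 library led in 28 genes, beside 44.3% of tested genes. Without MO204-4 the median log2FC was -0.97, with 27 of 34 below 0. The number below 0 was 26 to 31 of the 34 over the other settings tried with all 34 genes. The site of rearing differs between these strains too and cannot be told apart from the strain.

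Of the 4 calls in the fit of all 9 libraries, the one that held in every alternative was LOC101746050, the long noncoding RNA gene whose levels are given above. Its log2FC was -5.26 with a SE of 0.702 (edgeR adjusted p = 0.00789), and it remained called under all 16 alternatives. LOC101745123 had a log2FC of -5.86 with a SE of 1.15 (edgeR adjusted p = 0.0390), with MO204-4 far above MO204-1 and MO204-3. Without MO204-4 it was -3.58 (edgeR adjusted p = 0.0177). DESeq2 gave no adjusted p for this gene. The call was lost in 4 of the 15 alternatives that gave an adjusted p, those without LAT51-1, LAT51-2 or LAT51-4 (adjusted p = 0.157, 0.191 and 0.138 in edgeR) and the fit with a replicate block (0.108). Both genes were thus near 0 in LAT51 and higher in MO204, and in both strains they lay far below DMMMSU119, as the rule sets.

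LOC101743840 stood at 79.9, 149 and 194 CPM in DMMMSU119, 0.0998, 0.387 and 0.175 CPM in LAT51 and 1.07, 1.79 and 7.12 CPM in MO204. Its LAT51 vs. MO204 log2FC was -3.68 with a SE of 0.847 (edgeR adjusted p = 0.0667). The call was lost in 7 of 16 alternatives: without DMMMSU119-2 (edgeR adjusted p = 0.107), LAT51-1 (0.226), LAT51-2 (0.191), LAT51-4 (0.210), MO204-3 (0.126) or MO204-4 (0.144), and with no filter on low counts (0.110). LOC119630067, with at most 3 counts in each LAT51 library, had an MO204 mean at least 3.99-fold that floor (edgeR adjusted p = 0.0987) and was lost in 11 of 15 alternatives, with adjusted p up to 0.377. It passed the filter only through DMMMSU119 and could not be tested on the LAT51 and MO204 libraries alone.

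Other members in which the LAT51 and MO204 libraries did not overlap missed the threshold in the fit of all 9 libraries. Among them, LOC101743783 and LOC101746887 passed the filter only through DMMMSU119. Their values here are a description and not a test. LOC101743783, with 54.9, 54.2 and 40.9 CPM in DMMMSU119, 0.399, 0.0646 and 0 CPM in LAT51 and 0.712, 0.976 and 4.16 CPM in MO204, had a log2FC of -3.46 with a SE of 0.902 (edgeR adjusted p = 0.104). LOC101747054 had a log2FC of -1.94 (SE 0.541, edgeR adjusted p = 0.133) and LOC101737792 one of -1.70 (SE 0.502, edgeR adjusted p = 0.151). UGT41A2 (log2FC = -1.93, SE 0.759, edgeR adjusted p = 0.303) and LOC101746887 (-2.03, SE 0.770, 0.282) were further from it. In Spi2, where LAT51-4 overlapped the MO204 libraries, the log2FC was -1.81 with a SE of 0.942 (edgeR adjusted p = 0.482). LOC119630891 differed little, with 4.19, 3.36 and 3.50 CPM in LAT51 and 3.63, 2.76 and 3.28 CPM in MO204 (log2FC = 0.18, edgeR adjusted p = 0.924).

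**Figure D5:**
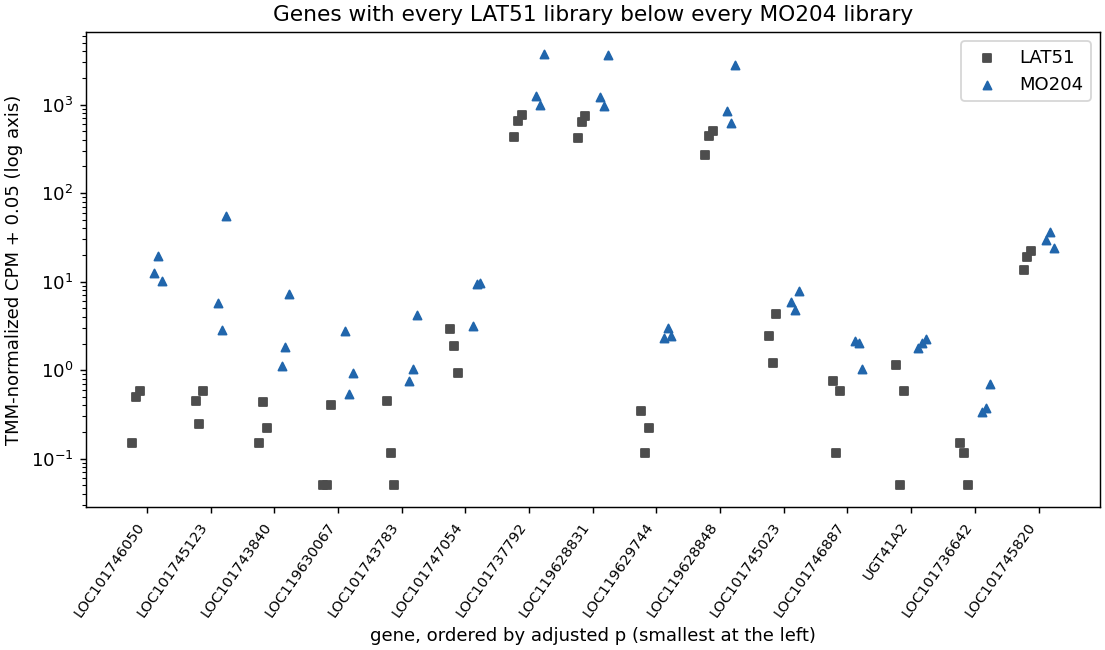
TMM-normalized CPM plus 0.05, on a log axis, in the LAT51 (squares) and MO204 (triangles) libraries for the 15 genes in which every LAT51 library lay below every MO204 library, ordered by adjusted p. The first 4 genes at the left are those called in LAT51 vs. MO204 in the fit of all 9 libraries. The 3 loci with the highest values are those with CPH43-like counts.

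In the gene order of ASM3026992v2, 27 of the 34 genes had a place beside other tested genes. In all, 2 pairs of members were next to each other among the tested genes, Spi2 with LOC101741526 and LOC101736569 with LOC101738479. LOC101736569 had 36.2, 163 and 46.3 CPM in DMMMSU119 and LOC101738479 had 14.0, 58.6 and 22.7 CPM, so both peaked in DMMMSU119-2. In all LAT51 and MO204 libraries both genes were under 1 CPM. Of the 50 next tested genes on either side that are not members, 12 (24.0%) were higher and 7 (14.0%) lower in DMMMSU119 than in MO204 in the edgeR test, beside 16.7% and 16.3% of all tested genes. Against LAT51, 13 (26.0%) were higher and 7 lower, beside 19.8% and 18.2%. The 12 and the 13 both include CPH43, which overlaps LOC101737792, had nearly its counts and was left out of the 34 by name. The median log2FC of the 50 neighbours was 0.15 against MO204 and 0.24 against LAT51, beside -0.03 and -0.01 over all tested genes.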

How the data were processed

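Silk gland RNA of 9 larvae (3 per strain) was analysed. According to the study's methods, the authors trimmed the reads (Trimmomatic 0.39, then fastp 0.20.0), aligned them with HISAT 2.1.0 to a RefSeq genome and counted them per gene with featureCounts 1.4.6-p5. The deposited count table holds raw whole-number counts. The deposited log2 values equal log2(count / DESeq2 size factor + 1), with a largest deviation of 4.97e-14.

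The rule was applied to the log2 table. The members and gene lists were chosen with earlier results of these data known. Counts were fitted with edgeR 4.0.16 (R 4.3.3) with 1 mean per strain over the 9 libraries (filterByExpr, TMM, quasi-likelihood test), and p-values were adjusted by Benjamini–Hochberg over the 7610 genes tested, with a threshold of 0.1 as in the study. SEs came from the F statistic. CPM values used TMM-scaled library sizes. Totals were 4527847 to 11641130 counts, which limits precision for genes at a few counts. Levels were not divided by gene length, so they compare libraries and not genes. Replicates differed by far more than sampling noise (chi-square per degree of freedom 53.5 to 238), so none was counted as a duplicate.

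Named members are the 12 with the largest gap, the 10 with the highest CPM in DMMMSU119, those with a symbol, those called in LAT51 vs. MO204, those at the limit of the rule and members of families. Families and markers were taken by symbol only, since gene descriptions were not used here. The gene table of ASM3026992v2, which is not the authors' build, gave names, biotypes and gene order, and no coordinates are printed. Promoter motifs were not searched. Alternatives were other scalings, DESeq2 1.42.0, limma 3.58.1 on the log2 values, no filter, fewer libraries, a replicate block, and other limits in the rule. The scripts were tested on simulated data.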

Additional observations from a re-analysis of the deposited data

How the results depend on the processing

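The number of members was 62 with a gap of 2, 21 with a gap of 4, 15 under scaling by library size alone, and 35 to 60 without single libraries, which can only add genes by construction. TMM-scaled values gave the same 34 genes. The median gap was 3.51 under scaling by library size alone. For LAT51 vs. MO204 (234 genes called), DESeq2 called 477, no filter on low counts 99 and the replicate block 29, and leaving out single libraries gave 78 to 307. Of the members, 10, 2 and 2 were called in these 3 settings, and 1 to 5 without single libraries (1 without LAT51-1 or LAT51-2, 2 without MO204-3 or MO204-4). DMMMSU119 vs. MO204 (2513 called) gave 5559 with library size alone, 506 with the replicate block and 1257 to 2823 without single libraries. DMMMSU119 vs. LAT51 (2891 called) gave 5657, 1843 and 1768 to 3201 in the same settings. With library size alone, 378 genes were higher and 5181 lower in DMMMSU119 than in MO204, and 571 higher and 5086 lower than in LAT51. The cause of these differences was not tested. The median log2FC of the 14 other protease inhibitor genes against MO204 turned from 1.20 in the reported fit to -0.15 with library size alone (5 against 2 genes higher). The LAT51 vs. MO204 fold changes of the 4 called members kept their sign in the alternatives that gave a value.

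Replicate numbers name different larvae, and the deviations of same-numbered libraries correlated at -0.151 to 0.229, so the numbers do not pair the samples. The block fit has 2 residual degrees of freedom. The scaling by library size alone and the 3 loci counted as 1 were chosen after seeing the data. With 3 larvae per strain and members near 0 outside DMMMSU119, LAT51 vs. MO204 differences were often not detectable at this depth.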

Other observations

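A pair of genes that are not members stood beside members in the gene order of ASM3026992v2 and followed a similar pattern. LOC101746274, next to LOC101737805, had 29, 2228 and 247 counts in DMMMSU119-0, -2 and -4, 10, 22 and 4 in LAT51 and 5, 0 and 0 in MO204. It missed the rule by its gap of 2.40 and by its lowest DMMMSU119 value of 5.90, just under the floor of 6. LOC105841302, next to LOC119630364, had 13, 416 and 77 counts in DMMMSU119, 0, 0 and 0 in LAT51 and 0, 0 and 1 in MO204. Its gap of 3.94 met the rule, but its lowest DMMMSU119 value of 4.77 on the log2 scale was under the floor of 6. Both were picked out after their values were seen, and both peaked in DMMMSU119-2, as the members beside them did.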
